A study of Mus musculus with 6 samples.

Results

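The genes described here are 32 antioxidant and glutathione detoxification genes, chosen by name, in mouse ovarian surface epithelium cells sorted by aldehyde dehydrogenase (ALDH) activity. They were found through the single-gene probe sets of the array, and the probe set of highest mean over the 6 arrays stood for each gene. Of the 32 genes, 29 had such a probe set, among 18193 genes on the array. Gsta1, Prdx1 and Prdx6 had none, and their levels were not analysed here. Sod3, the secreted superoxide dismutase, was too dim for a test, so that 28 genes were compared, of 12814 tested in all.

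The cells came from ovaries of virgin FVB/N females aged 8 weeks and had been in culture for 24 hours. They were stained with ALDEFLUOR, a fluorescent ALDH substrate, against unstained and inhibitor-treated controls, and sorted into ALDH-positive and ALDH-negative cells. Both fractions share strain, age, sex, culture and stain, and no mouse carried a transgene or received an agent, as far as the labels say. Cells were pooled from 10 mice at a time, and both fractions of a pool were measured on Affymetrix Mouse Genome 430 2.0 arrays, which gave 3 pairs of ALDH-positive and ALDH-negative samples. A sample is a mixture of the cells of 10 mice, and the sort gate, not a marker gene, defines the group. Values are log2 signals, on which 1 unit is a 2-fold change, and differences are ALDH-positive minus ALDH-negative.

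These genes protect cells from reactive oxygen and from reactive chemicals. Glutathione, a small thiol made from imported cystine, is spent by peroxidases to remove peroxides and by glutathione transferases to tag electrophiles for export. The transcription factor Nrf2, encoded by Nfe2l2, drives many of these genes when oxidants release it from its inhibitor Keap1, by binding the antioxidant response element (ARE) with a small Maf partner. In the ovary such enzymes are known from steroid-producing cells, whose cytochromes leak oxidants, and in many tissues aldehyde dehydrogenases and glutathione transferases clear related lipid aldehydes.

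The promoter windows of the genes were searched for ARE letters, since Nrf2 is a known regulator of many of them. RefSeq gave windows of 300 bases (250 before to 50 after the gene start, GRCm38.p6) for 26 of the 32 genes, 33 windows in all. The ARE core TGACNNNGC, read on both strands, lay in at least 1 window of 9 of the 26 genes (34.6%), against 14.0% of all 27025 genes with a window. By window the shares were 27.3% for these genes and 12.4% of all 32851. The stricter Nrf2-Maf form TGANTCAGC, part of whose matches are also matches of the core, lay in windows of 3 of the 26 genes (Gstp1, Prdx1 and Srxn1), against 1.37% of all genes. The core of the xenobiotic response element, TNGCGTG, which the aryl hydrocarbon receptor binds, was found for 1 of the 26 genes, Gsta2 (3.85%), against 5.84% of all genes. These are matches of letters in a short window, and binding was not measured. The chosen probe sets of Mgst1 and Txnrd1 lay higher in ALDH-positive cells in each pool. All 4 probe sets of Srxn1 lay above 0 over 3 pools and below 0 over pools 1 and 3. The windows of Mgst1, Txnrd1 and Srxn1 are shown whole below, with the matches in capitals. They lie at chr6:138140277-138140576 (plus strand), chr10:82858956-82859255 (plus strand) and chr2:152105274-152105573 (plus strand).
Mgst1: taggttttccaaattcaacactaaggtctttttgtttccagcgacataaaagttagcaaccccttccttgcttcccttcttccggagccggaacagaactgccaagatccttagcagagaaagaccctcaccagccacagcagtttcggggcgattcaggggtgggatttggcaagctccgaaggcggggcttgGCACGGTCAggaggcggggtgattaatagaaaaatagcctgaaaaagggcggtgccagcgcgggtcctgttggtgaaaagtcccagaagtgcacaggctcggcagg
Txnrd1: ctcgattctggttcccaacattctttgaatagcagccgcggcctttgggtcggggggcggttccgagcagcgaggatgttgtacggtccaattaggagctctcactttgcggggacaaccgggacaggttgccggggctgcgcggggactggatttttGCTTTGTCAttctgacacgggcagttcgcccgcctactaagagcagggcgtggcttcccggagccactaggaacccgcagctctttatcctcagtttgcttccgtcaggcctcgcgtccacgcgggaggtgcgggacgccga
Srxn1: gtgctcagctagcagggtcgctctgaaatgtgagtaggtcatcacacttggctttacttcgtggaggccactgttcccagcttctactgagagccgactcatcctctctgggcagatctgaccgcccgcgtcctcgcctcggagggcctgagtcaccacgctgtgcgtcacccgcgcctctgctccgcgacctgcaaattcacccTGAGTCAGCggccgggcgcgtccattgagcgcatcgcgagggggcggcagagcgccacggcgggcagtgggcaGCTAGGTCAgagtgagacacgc

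For the other genes with an ARE core or Nrf2-Maf match, the stretch around the match is given with the match in capitals, in the direction of the gene. Those on the plus strand are Gclm (chr3:122245407-122245447), Gstm5 (chr3:107895796-107895836), Gsta3 (chr1:21240448-21240488), Prdx1 (chr4:116685450-116685490) and Sod1 (chr16:90220690-90220730). Nfe2l2 (chr2:75704879-75704913) and Gstp1 (chr19:4037962-4038002) lie on the minus strand.
Gclm: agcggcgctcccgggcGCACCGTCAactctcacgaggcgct
Gstm5: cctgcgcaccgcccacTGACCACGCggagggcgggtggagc
Gsta3: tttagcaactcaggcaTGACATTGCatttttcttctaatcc
Prdx1: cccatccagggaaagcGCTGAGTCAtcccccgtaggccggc
Sod1: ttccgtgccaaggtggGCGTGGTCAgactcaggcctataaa
Nfe2l2: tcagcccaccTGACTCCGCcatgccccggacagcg
Gstp1: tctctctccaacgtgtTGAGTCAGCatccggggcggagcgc

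One array stood apart and touches most results below. The ALDH-negative array of pool 2 correlated with the other arrays at 0.20 to 0.417 across the tested probe sets, while the 5 others correlated at 0.716 to 0.960 with each other, most closely the ALDH-positive arrays of pools 1 and 2. Among the 28 genes, 18 read lowest on that array (64.3%), against 33.2% of all genes tested, and 3 read highest (10.7%), against 40.4%. Bright genes in general read low on it: of the 4271 genes brightest by their mean over the 5 other arrays, 54.8% read lowest there, as did 16 of the 25 genes of this set among them. Most comparisons are therefore given over the 3 pools and again over pools 1 and 3, or pool by pool. Markers of the surface epithelium were present, with 11 of 11 above 2.73, the level under which probe sets were left out, on at least 1 array. In ALDH-negative cells Bnc1 and Lrrn4 lay below it on every array. The log2 of the summed signal of the 11 was 8.09 to 9.01 in the ALDH-negative fraction and 11.08 to 11.55 in the ALDH-positive one. In such bulk samples fewer cells of a type and less RNA per cell cannot be told apart.

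None of the 28 genes differed between the fractions past the threshold (limma with the pool as a block, Benjamini-Hochberg adjusted p under 0.05 over 27022 probe sets), when 0.0% of all probe sets passed. At an unadjusted p under 0.05 none of the 28 passed either, against 1.93% of all genes higher and 0.429% lower (2.45% of probe sets). The adjusted p-values of the genes ranged from 0.895 to 0.983 in the limma fit. In no gene did the groups separate without overlap, while the values of 3.55% of all genes did so in the higher and 3.32% in the lower direction. The mean difference lay above 0 for 20 genes and below 0 for 8, when 46.0% of all genes lay above 0. With the values as deposited or median-centred, 24 of the 28 lay above 0. The median was 0.76 beside -0.08 over all genes tested. By pool the medians of the genes were -0.13 in pool 1, 1.75 in pool 2 and -0.05 in pool 3, beside 0.01, -0.18 and 0.03 for all genes.

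The median over pools 1 and 3 was -0.13, beside 0.04 over all genes, 11 lay above 0 and 17 below, and 11 of the 28 had changed sign (10 from above 0 to below, 1 the other way). In 15 the mean of pools 1 and 3 lay within 0.5 of 0. None passed the threshold (limma adjusted p from 0.909 to 0.985; 0.0% of all probe sets). At an unadjusted p under 0.05, Gstt1 was higher (1 of 28, against 2.71% of all genes), and Slc7a11 and Gpx3 were lower (2 of 28, 7.14%, against 1.87%; 4.56% of probe sets in either direction). Differences lay above 0 in each of the 3 pools for Nqo1, Mgst1, Txnrd1 and Ephx1, which is 14.3% of the genes against 11.3% of all. With the values as deposited or median-centred they did so for 3 genes. They lay below 0 in each pool for Gclc and Gsto1, which is 7.14% against 11.4%. Gsto1 and Gclc each had a second probe set that lay above 0 over 3 pools, and the other 2 probe sets of Txnrd1 lay below 0 in pool 3.

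**Figure D1:**
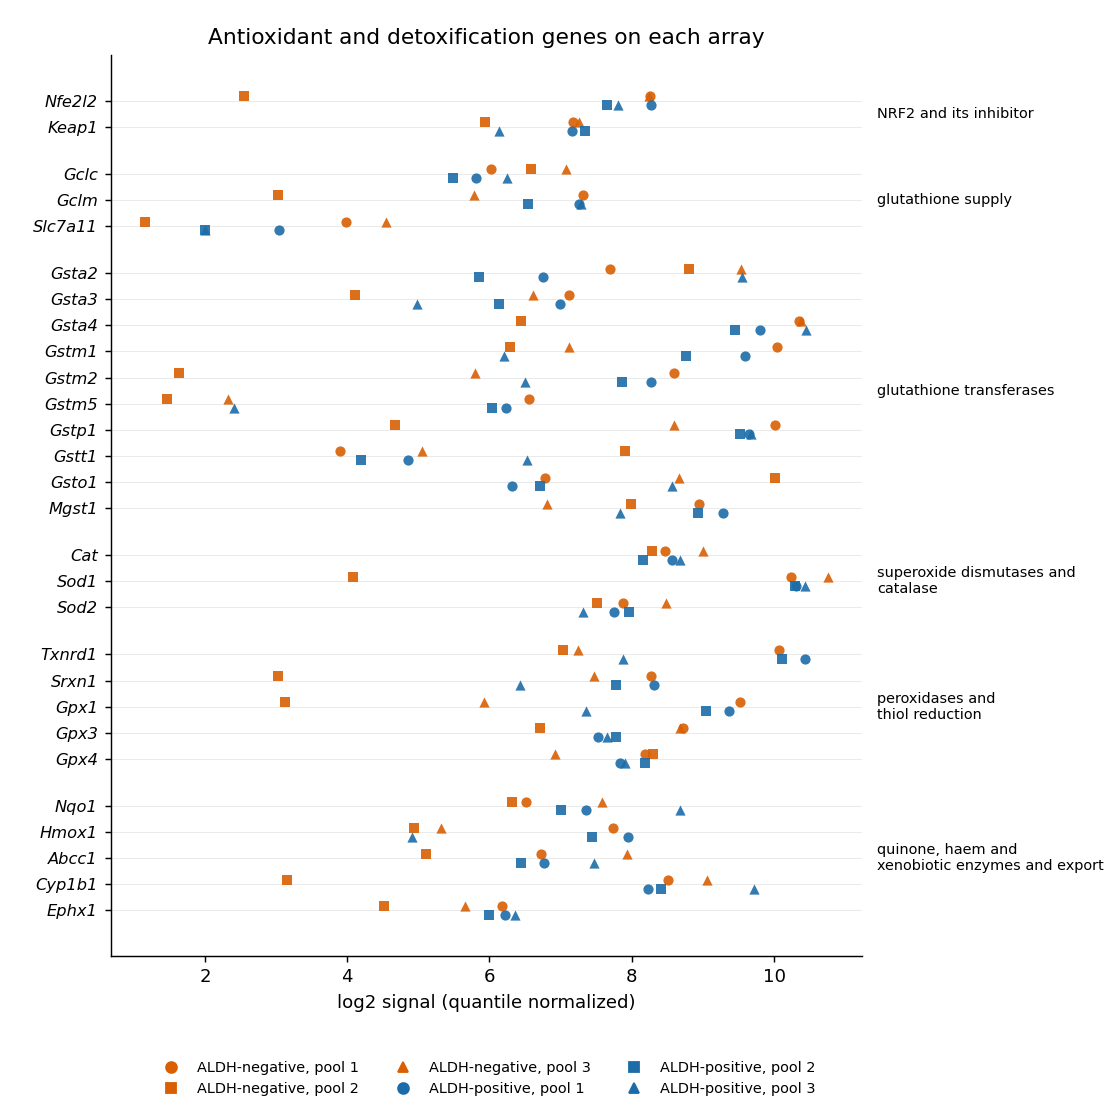
Log2 signal (x axis) of the 28 tested genes on each array, grouped by role; colour marks the fraction and marker shape the pool, 1 point per array. The ALDH-negative square of pool 2 lies far to the left of the other points for genes such as Sod1 (4.09) and Gstm2 (1.64), while the points of Cat lie between 8.16 and 9.01.

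Nfe2l2, which encodes Nrf2, differed by 0.02 in pool 1 and -0.44 in pool 3, and by 5.09 in pool 2. It read 8.25, 2.55 and 8.25 in ALDH-negative cells of pools 1, 2 and 3, and 8.28, 7.65 and 7.80 in ALDH-positive cells. The only low value was that of the array that stood apart. Its difference was 1.56 over 3 pools (SE 1.12) and -0.21 over pools 1 and 3 (SE 0.41). Its second probe set gave -0.53 over 3 pools, and -0.60 and -1.23 in pools 1 and 3 (mean -0.91). Keap1, which targets Nrf2 for degradation, read 7.17, 5.94 and 7.26 in the ALDH-negative fraction and 7.15, 7.34 and 6.14 in the ALDH-positive one. The groups overlapped, and the difference of 0.09 (SE 0.74) was -0.57 over pools 1 and 3 (SE 0.46), which came from pool 3 alone (-1.12, against -0.01 in pool 1).

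Of the genes that supply glutathione, Slc7a11, the cystine importer, had the lowest difference over pools 1 and 3 among the 28, though it was not called. It read 3.98, 1.15 and 4.55 in the ALDH-negative fraction and 3.04, 2.00 and 2.00 in the ALDH-positive one. The difference was -0.94 in pool 1 and -2.55 in pool 3 but 0.84 in pool 2, a mean of -0.88 (SE 0.81) and, over pools 1 and 3, of -1.74 (SE 0.52). In pools 2 and 3 the ALDH-positive values lie below the filter level of 2.73, and the other probe set of the gene was too dim to be tested. With array weights, which gave the arrays of pool 3 a weight of 4.87 each and those of pool 2 a weight of 0.158, limma called it lower (-2.13, adjusted p = 0.00401), together with 10.9% of all probe sets. Its limma adjusted p ran from 0.00401 to 0.99979 over the 12 alternative settings in which it was tested; it was too dim for the stricter filter, which left out the lower 60% of probe sets.

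The subunits of glutamate-cysteine ligase, the enzyme of the limiting step of glutathione synthesis, had means of opposite direction on the probe sets that stood for them. Gclm, the modifier subunit, read 7.32, 3.02 and 5.78 in the ALDH-negative fraction and 7.26, 6.55 and 7.29 in the ALDH-positive one. It was thus nearly equal in pool 1 (-0.06) and higher in ALDH-positive cells by 1.51 in pool 3, with a mean of 1.66 (SE 0.83) over 3 pools and 0.72 (SE 0.52) over pools 1 and 3. Its second probe set gave -0.17, -0.86 and 1.45 in pools 1 to 3, with 0.14 over 3 pools and 0.64 over pools 1 and 3. Gclc, the catalytic subunit, read 6.02, 6.59 and 7.07 in the ALDH-negative fraction and 5.80, 5.49 and 6.24 in the ALDH-positive one. It was lower in each pool, with a mean of -0.71 (SE 0.65) and of -0.52 over pools 1 and 3 (SE 0.42). The second probe set of Gclc differed by 0.64 over 3 pools and by -0.45 over pools 1 and 3, so that the sign of the gene over 3 pools depended on the probe set.

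Glutathione transferases join glutathione to electrophiles, and 10 of them were tested. Over 3 pools 7 lay above 0 and 3 below; over pools 1 and 3, 4 lay above and 6 below. Mgst1, a transferase of the endoplasmic reticulum and mitochondrial membranes, was higher in ALDH-positive cells in each pool, by 0.34, 0.95 and 1.04. It read 8.94, 7.98 and 6.80 in the ALDH-negative fraction and 9.28, 8.94 and 7.84 in the ALDH-positive one. Pool differences in level are larger than this difference, so the groups overlap while each pair points one way. The mean was 0.78 (SE 0.64, a 1.71-fold difference), and 0.69 over pools 1 and 3 (SE 0.42).

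Gstt1, a theta-class enzyme, had the highest difference over pools 1 and 3 among the 28, not called. It read 3.90, 7.90 and 5.05 in the ALDH-negative fraction and 4.86, 4.20 and 6.52 in the ALDH-positive one. Here the array that stood apart read highest, which set a pool 2 difference of -3.70 against 0.96 and 1.48 in pools 1 and 3. The mean over pools 1 and 3 was 1.22 (SE 0.41), and over 3 pools -0.42 (SE 1.06). Gsto1, an omega-class enzyme with thiol transferase activity, was likewise highest on that array at 10.02. Its pool differences were -0.46, -3.30 and -0.10, with -0.28 over pools 1 and 3 (SE 0.40). Its second probe set gave 0.06 over 3 pools and -0.29 over pools 1 and 3.

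The alpha-class enzymes conjugate lipid peroxidation products. Gsta4, specialised in 4-hydroxynonenal, read 10.34, 6.45 and 10.38 in the ALDH-negative fraction and 9.80, 9.44 and 10.45 in the ALDH-positive one, and differed by -0.23 over pools 1 and 3 (SE 0.42). Gsta2 read 7.69, 8.80 and 9.54 in the ALDH-negative fraction and 6.75, 5.86 and 9.54 in the ALDH-positive one. Its difference was -0.94 in pool 1, -2.94 in pool 2 and 0.00 in pool 3, a mean of -1.29 (SE 0.78), and the groups overlapped. Over pools 1 and 3 it was -0.47 (SE 0.44). Gsta2 and Gsta1 are near-identical copies, so that signal of one can be read as the other. Gsta3 differed by -0.13 in pool 1 and -1.62 in pool 3 (mean of both -0.87, SE 0.51), but its second probe set by -0.02.

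Gstp1, the pi-class enzyme that is abundant in many epithelia, was even across the ALDH-positive arrays (9.61 ± 0.08, SD, n = 3) and read 10.01, 4.67 and 8.59 in ALDH-negative cells. Its difference was -0.36 in pool 1 and 1.08 in pool 3, with 0.36 over both (SE 0.50). Among the mu-class enzymes Gstm2 gave -0.32 in pool 1 and 0.70 in pool 3 beside 6.23 in pool 2, the largest pool difference of the set. Gstm5 gave -0.33 and 0.08 in pools 1 and 3, and Gstm1 -0.45 and -0.91. The sign of Gstm1 depended on the probe set, since the 3 tested gave -0.68, -0.13 and 0.23 over pools 1 and 3. None of the mu-class differences of pool 1 or pool 3 reached 1.

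Sod1, the cytosolic superoxide dismutase, had nearly level values outside 1 array on the probe set that stood for it. It read 10.24, 4.09 and 10.75 in the ALDH-negative fraction and 10.30, 10.29 and 10.43 in the ALDH-positive one. The differences in pools 1 and 3 were 0.07 and -0.32, so that its mean of 1.98 over 3 pools (SE 1.27) rests on pool 2, and over pools 1 and 3 it was -0.13 (SE 0.40). Its other tested probe sets gave 0.27 and 0.78 over pools 1 and 3. Sod2, the mitochondrial enzyme, differed by -0.13 in pool 1 and -1.16 in pool 3, with -0.65 over both (SE 0.45). Its 4 tested probe sets ran from -0.65 to 0.17. Cat, the peroxisomal catalase, had no pool difference past 0.5 in size: it read 8.46, 8.29 and 9.01 in the ALDH-negative fraction and 8.56, 8.16 and 8.68 in the ALDH-positive one, a difference of -0.12 (SE 0.63). Its second probe set read 4.47 on the array that stood apart, where the first read 8.29. The probe set that stood for Sod3 read 2.31 to 2.68, below the filter level on every array.

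The peroxidases differed in direction. Gpx3, the secreted plasma glutathione peroxidase, was lower in ALDH-positive cells by 1.20 in pool 1 and 1.03 in pool 3, and higher by 1.06 in pool 2. It read 8.72, 6.72 and 8.68 in the ALDH-negative fraction and 7.52, 7.78 and 7.65 in the ALDH-positive one, and the groups overlapped through the low ALDH-negative value of pool 2. The mean over pools 1 and 3 was -1.11 (SE 0.40, a 2.16-fold difference), and over 3 pools -0.39 (SE 0.74). Gpx1, the cytosolic enzyme, read 9.52, 3.12 and 5.92 in the ALDH-negative fraction and 9.37, 9.04 and 7.36 in the ALDH-positive one. It had the largest mean of the 28 over 3 pools (2.40, SE 1.13), which was 0.65 over pools 1 and 3 (SE 0.52), with -0.15 in pool 1 and 1.45 in pool 3. Gpx4, which reduces lipid hydroperoxides in membranes, differed by -0.35, -0.10 and 0.98 (mean 0.18, SE 0.67). Over pools 1 and 3 it differed by 0.32 (SE 0.49), and its second probe set by -0.33.

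Txnrd1, the cytosolic thioredoxin reductase, lay higher in ALDH-positive cells in each pool on the probe set that stood for it. It read 10.07, 7.04 and 7.25 in the ALDH-negative fraction and 10.44, 10.11 and 7.88 in the ALDH-positive one. The pool differences were 0.37, 3.07 and 0.63, with a mean of 1.36 (SE 0.77) and of 0.50 over pools 1 and 3 (SE 0.40). Its other probe sets lay below 0 in pool 3 (-0.23 and -0.01), and gave 0.13 and 0.42 over pools 1 and 3. Srxn1, which repairs overoxidised peroxiredoxins, gave 0.05 in pool 1 and -1.03 in pool 3, beside 4.76 in pool 2. All 4 of its probe sets lay below 0 over pools 1 and 3 (-0.91 to -0.07) and above 0 over 3 pools (0.04 to 1.26).

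Nqo1, the quinone reductase that is a classical target of Nrf2, had pool differences closer to each other than those of Mgst1, Txnrd1 or Ephx1. It read 6.51, 6.32 and 7.58 in the ALDH-negative fraction and 7.36, 7.01 and 8.67 in the ALDH-positive one, higher in each pool by 0.85, 0.68 and 1.10. The groups overlap, because ALDH-negative cells of pool 3 read above ALDH-positive cells of pools 1 and 2. The mean was 0.88 (SE 0.63, a 1.84-fold difference; limma adjusted p = 0.895), and 0.97 over pools 1 and 3 (SE 0.40). It has 1 probe set, and across the 13 alternative settings its difference ran from 0.64 to 1.51.

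Hmox1, the inducible haem oxygenase, showed no steady direction: it read 7.74, 4.94 and 5.32 in the ALDH-negative fraction and 7.95, 7.44 and 4.92 in the ALDH-positive one. Its difference over pools 1 and 3 was -0.09 (SE 0.42). Ephx1, the microsomal epoxide hydrolase, gave 0.05, 1.48 and 0.70 (mean 0.74, SE 0.67), and 0.37 over pools 1 and 3. Cyp1b1, a cytochrome that oxidises hydrocarbons and estrogens, read 8.51, 3.15 and 9.06 in the ALDH-negative fraction and 8.22, 8.40 and 9.71 in the ALDH-positive one, with 0.18 over pools 1 and 3 (SE 0.44). Abcc1, which exports glutathione conjugates, gave 0.04, 1.34 and -0.47. In each of these genes the largest difference was that of pool 2.

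**Figure D2:**
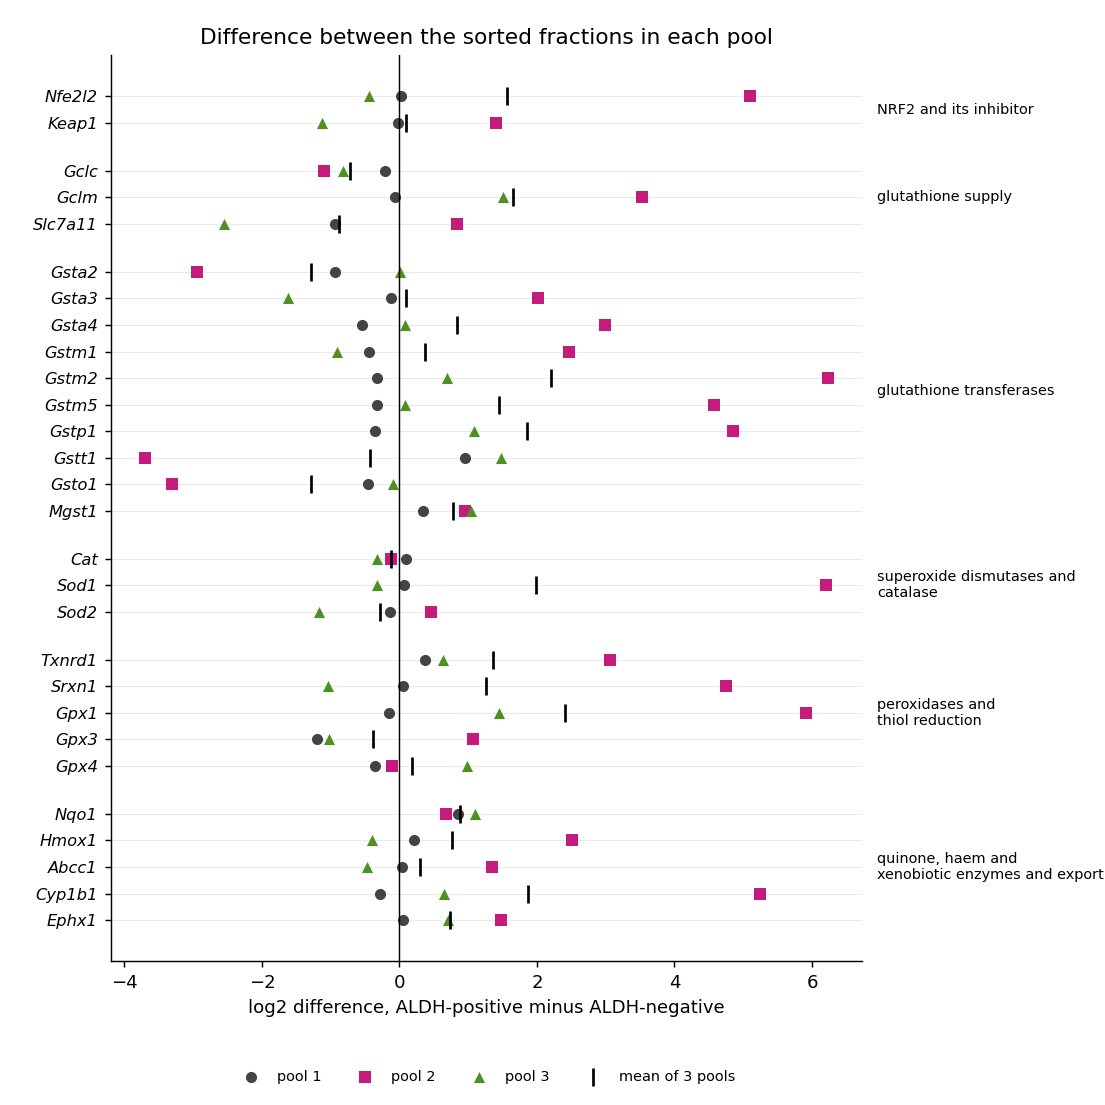
Log2 difference, ALDH-positive minus ALDH-negative (x axis), of each gene in pools 1, 2 and 3, with a bar at the mean of the 3 pools. The squares of pool 2 spread from -3.70 to 6.23, and in 21 of the 28 genes pool 2 had the largest difference in size, while pool 1 stayed between -1.20 and 0.96.

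**Figure D3:**
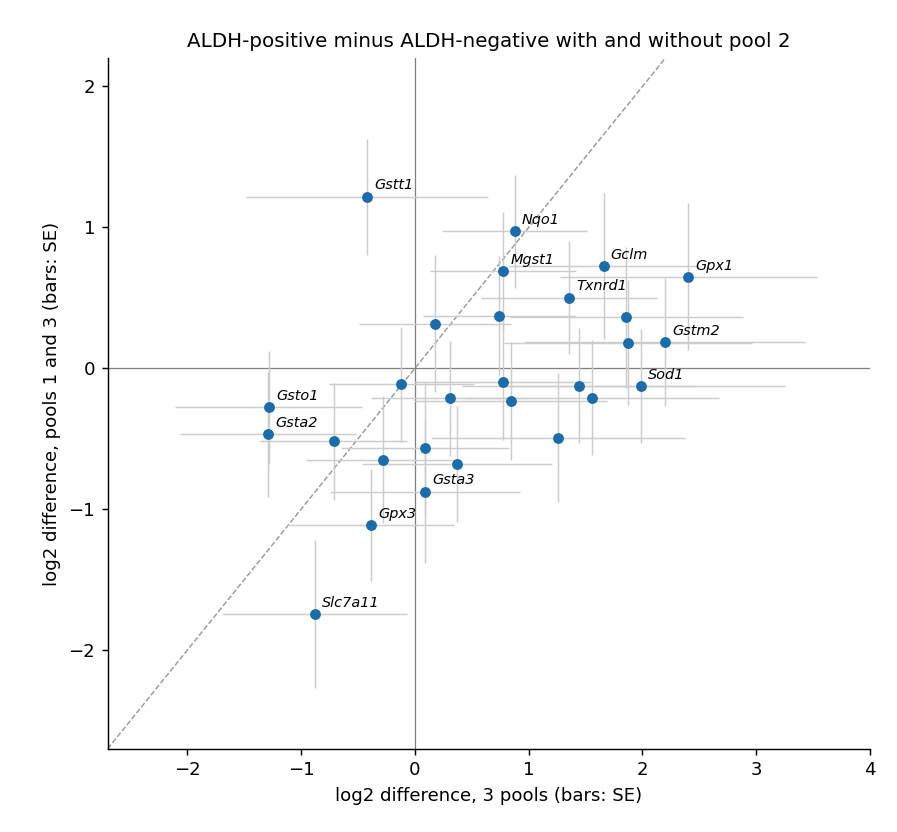
Mean log2 difference over pools 1 and 3 (y axis) against that over 3 pools (x axis) for the 28 genes; bars are the SE of the limma fit and the dashed line marks equal values. Nqo1 and Mgst1 lie near the line at 0.88 and 0.78, whereas Sod1 moves from 1.98 to -0.13 and Gstt1 from -0.42 to 1.22.

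The size of the differences also varied between the pools. In pool 1, 22 of the 28 genes lay within 0.5 of 0 (69.1% of all genes did) and 1 lay past 1 in size (7.87% of all), which was Gpx3. In pool 3, 9 lay within 0.5 (49.8% of all) and 12 past 1 (21.7% of all). In pool 2, 22 lay past 1 (69.7% of all), of which 18 lay above it (32.5% of all). Above 0 lay 11 genes in pool 1, 22 in pool 2 and 14 in pool 3.

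Levels also differed between pools 1 and 3. Both arrays of pool 3 read below both of pool 1 in 10 genes (24.6% of all genes did), with mean differences from -4.03 to -0.24. They were Hmox1, Gsta3, Gstm1, Gstm2, Gstm5, Mgst1, Txnrd1, Srxn1, Gpx1 and Nfe2l2. In another 10 genes both read above (38.6% of all), by 0.32 to 2.32, namely Nqo1, Gclc, Gsta2, Gsta4, Gstt1, Gsto1, Cat, Sod1, Abcc1 and Cyp1b1. Gstm5 read 6.56 and 6.23 in pool 1 but 2.32 and 2.40 in pool 3, below the filter level. Gstt1 read 3.90 and 4.86 in pool 1 and 5.05 and 6.52 in pool 3.

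This contrast between pools depended on the probe set. Of 14 genes with more than 1 tested probe set, 8 had probe sets of both signs for pool 3 minus pool 1. The 3 probe sets of Gstm1 ran from -4.89 to 0.26, and those of Sod1 from -2.93 to 1.84. The 5' end of transcripts was dimmer in pool 3: the 3' minus 5' difference of Gapdh, a glycolytic enzyme used as a control, was 3.59 and 5.30 on its arrays, against 0.90 to 2.15 on the others. Between the fractions it differed by 0.27 (SD 1.37 over 3 pairs; two-sided exact permutation test by sign flips, p = 0.75, where 0.25 is the smallest possible). The pairs went both ways, so this mean does not show equal RNA quality. ALDH-negative and ALDH-positive arrays gave 0.90 and 1.00 in pool 1, 2.15 and 1.14 in pool 2, and 3.59 and 5.30 in pool 3. The same measure of Actb, a cytoskeletal control, was 0.98 and 0.78 in pool 3 and -0.28 to 0.22 on the other arrays. It was lower in ALDH-positive cells in 3 of 3 pairs, by a difference of -0.27 (SD 0.14, exact permutation p = 0.25). The level of controls, as deposited, was low on the ALDH-negative array of pool 2. There the 3' probe set of Actb read 5.03, against 9.56 to 11.04 on the others. That of 18S read 5.80, against 8.66 to 12.30, and that of Gapdh 10.07, against 10.22 to 11.24. The part of RNA quality in the contrast of pools, or in the differences between the fractions, was not tested.

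**Figure D4:**
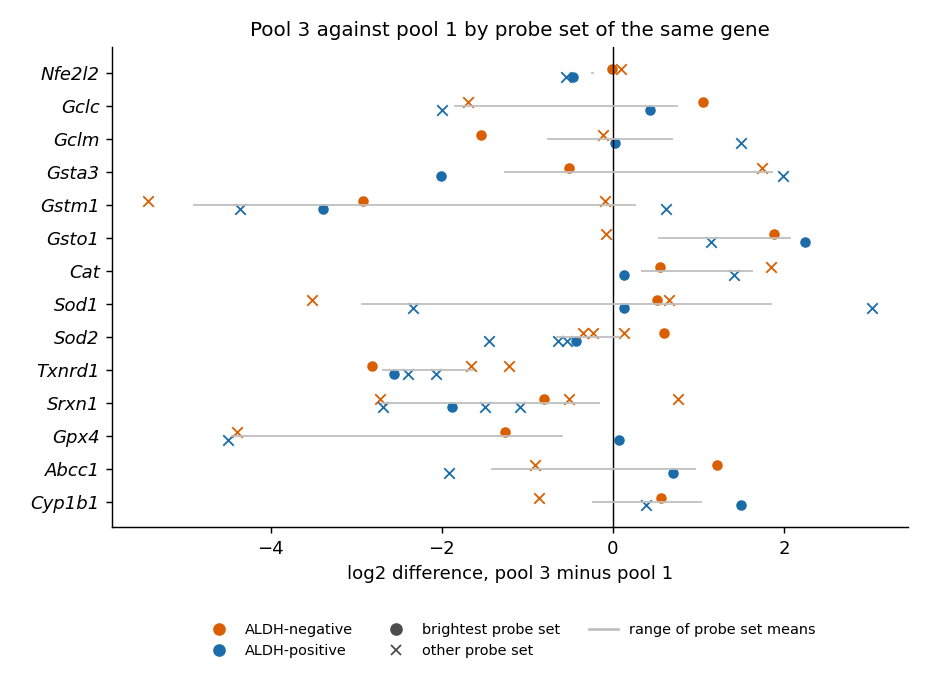
Log2 difference of pool 3 minus pool 1 (x axis) for each tested probe set of the 14 genes with more than 1, in ALDH-negative and ALDH-positive cells; circles are the probe set that stands for the gene, crosses the others, and the grey line spans the probe set means. Gstm1 and Sod1 have probe sets on both sides of 0, while the 3 of Txnrd1 all lie below it.

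Markers of steroid-producing cells were present in both fractions. Of 9 listed, 7 were measured, and 6 of these, Cyp11a1, Hsd3b1, Star, Fdx1, Scarb1 and Ptgfr, were bright enough to be tested. Cyp17a1, which marks theca cells, lay above the filter level on 1 array only. The log2 of the summed signal of the 7 was 12.80, 8.20 and 12.18 in the ALDH-negative fraction and 12.22, 12.24 and 11.67 in the ALDH-positive one. This sum was lower in ALDH-positive cells in pools 1 and 3. Cyp11a1, Hsd3b1, Star, Fdx1 and Ptgfr were lower in both of these pools. Scarb1 was lower in pool 1 (-0.69) but not in pool 3 (0.01), and Cyp17a1 gave 0.53 and 0.16 in pools 1 and 3. Fibroblast markers summed to 6.86 to 8.64 in the ALDH-negative fraction and 9.88 to 10.17 in the ALDH-positive one, and leukocyte markers to 6.01 to 8.45 and 5.40 to 8.30. Granulosa markers summed to 7.54 to 10.86 and 9.88 to 10.50, smooth muscle markers to 7.33 to 8.14 and 10.29 to 10.66, and endothelial markers to 5.75 to 6.19 and 5.38 to 6.74. Erythroid markers summed to 3.61 to 5.82 and 3.70 to 4.23, with Hba-a1 and Alas2 too dim to be tested. Such sums follow the brightest genes of a list. Of the fibroblast list, Col1a1, Col3a1 and Thy1 were higher in ALDH-positive cells in each pool. Col1a2 (-1.17), Dcn (-0.67) and Pdgfra (-0.36) were lower in pool 3, and Lum lay below the filter level on every array. Of the smooth muscle list, Acta2, Tagln and Myl9 were higher in each pool. Myh11 was lower in pools 2 and 3 (-3.30 and -1.33), and Des in pool 2 (-2.24). The part of these cell types in the results was not tested.

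Further genes of the pathway were examined from lists of 80 names, of which 65 were tested. None passed the threshold over 3 pools or over pools 1 and 3 (limma, 0.0% of all probe sets). At an unadjusted p under 0.05 none did over 3 pools, against 1.93% of all genes higher and 0.429% lower. Over pools 1 and 3, 1 was higher (1.54%, against 2.71% of all genes) and none lower (1.87% of all). The higher gene was Chac1, which degrades glutathione (0.94 in pool 1 and 1.05 in pool 3, mean 0.99, SE 0.40), named after its values were seen. The mean lay above 0 for 44 (67.7%, against 46.0% of all genes) and below for 21. The median was 0.39 over 3 pools and -0.11 over pools 1 and 3. In 8 genes the difference lay above 0 in each pool (12.3%) and in 5 below (7.69%), beside 11.3% and 11.4% of all genes.

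In the glutathione and thioredoxin list, with 23 of 26 tested, 19 lay above 0 over 3 pools (82.6%, against 46.0% of all genes) and 4 below. Of the 23, 14 read lowest on the array that stood apart. The median was 0.44 over 3 pools and 0.02 over pools 1 and 3. In both of pools 1 and 3, 7 lay above 0 and 7 below. Ggct, which turns over glutathione breakdown products, gave 0.35, 4.42 and 1.03 in pools 1 to 3. Gpx8, a peroxidase of the endoplasmic reticulum, gave 0.18, 4.85 and 0.92, and was the 1 gene of the 65 whose ALDH-positive values all lay above the ALDH-negative ones (1.54%, against 3.55% of all genes). Txn1, thioredoxin itself, gave -0.13, 5.85 and 0.58. Below 0 over 3 pools lay Txnrd2 (-2.29, SE 1.04; -0.74 over pools 1 and 3) and Gpx2 (-0.50, SE 0.81; 0.47 over pools 1 and 3). Glrx, a glutaredoxin, gave -0.88, 0.62 and -0.70.

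In the conjugation and export list, with 20 of 30 tested, 10 lay above 0 over 3 pools and 10 below, when 46.0% of all genes lay above. The median was 0.07 over 3 pools and -0.20 over pools 1 and 3. In both of pools 1 and 3, 2 lay above 0 and 8 below. Ahr, the aryl hydrocarbon receptor, was higher in each pool, by 0.77, 1.57 and 1.20. It read 4.79, 3.83 and 5.63 in the ALDH-negative fraction and 5.56, 5.40 and 6.83 in the ALDH-positive one, with a mean of 1.18 (SE 0.64) and of 0.99 over pools 1 and 3 (SE 0.41), not called. Its target Tiparp was also higher in each pool, by 0.64, 5.25 and 0.58. Cbr3, a carbonyl reductase, gave -0.24, 1.86 and 1.54. Cyp1b1, another gene driven by Ahr but not of this list, gave -0.28, 5.25 and 0.65. Cyp1a1 and Ahrr of this list were too dim to be tested. On the lower side, Abcc5 gave 0.00, -2.87 and -0.56, the exporter Abcc4 gave -1.11, -0.41 and -0.18, and Mgst2 gave -0.89, -0.53 and 0.21.

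In the list of Nrf2 regulators and targets, with 22 of 24 tested, 15 lay above 0 over 3 pools (68.2%, against 46.0% of all genes) and 7 below. The median was 0.53 over 3 pools and -0.14 over pools 1 and 3. In both of pools 1 and 3, 2 lay above 0 and 8 below. Fth1, the ferritin heavy chain, gave 0.47, 7.29 and 0.03, Cul3, the ligase scaffold that works with Keap1, gave -0.12, 6.72 and -0.46, and the metallothionein Mt1 gave -0.23, 5.90 and -0.19. Outside pool 2 all 3 were within 0.5 of 0. Rbx1, the ring subunit of that ligase, gave 0.01, -1.20 and -1.30, the Nrf2 competitor Bach2 1.37, -4.16 and -0.83, and the small Maf gene Mafk -0.18, -1.91 and -0.24. Mafk and Osgin1, the latter singled out after its values were seen, were the 2 of the 65 genes whose ALDH-positive values all lay below the ALDH-negative ones (3.08%, against 3.32% of all genes). Osgin1, an oxidative stress responsive gene, read 7.31 at most in the ALDH-negative fraction and 6.88, 6.51 and 6.17 in the ALDH-positive one (difference -0.64, SE 0.64).

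Set beside the promoter windows shown above, the 8 tested genes with an ARE core match had a median difference of 1.40 over 3 pools. All 8 lay above 0, against 46.0% of all genes, and all but Mgst1 read lowest on the array that stood apart. Over pools 1 and 3 their median was -0.13, with 3 above 0. The 16 with a window and no ARE core match, among them Gstp1 with its Nrf2-Maf match, had medians of 0.13 and 0.03, with 9 and 8 above 0. Nqo1, too, is among the 16, and no match says only that these letters are not in its window. The values of the matched genes over pools 1 and 3 ran from -0.87 to 0.72, within the -1.74 to 1.22 of the 16. Of the 16, Nqo1, Gstm2, Gstp1, Slc7a11, Gpx1, Gpx3, Cyp1b1, Ephx1 and Keap1 also read lowest on the array that stood apart. The 4 tested genes without a window had medians of 0.54 and -0.22, with 3 and 0 above 0.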

How the data were processed

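The authors deposited 1 table of log2 values with 45101 probe sets and 6 arrays; the scale was taken from its range, and how it was background corrected and normalized is not stated in the labels. RNA was amplified from small amounts before labelling, per the labels' protocols, which can lose 5' signal. Because array medians differed by 0.46, more than the limit of 0.2, arrays were quantile normalized without the 64 control probe sets. Names came from GEO's platform annotation, updated by Entrez identifier (34945 probe sets with 1 symbol, 932 with several, 9160 with none); none were taken from probe sets with several. Probe sets in the lower 40% by mean (under 2.73) were left out, which left 27022.

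The test was limma's lmFit and eBayes (version 3.58.1, R 4.3.3) with the pool as a block, in place of the paired SAM analysis named in the series design. Benjamini-Hochberg adjustment ran over all tested probe sets, with a threshold of 0.05. The fit was also run on simulated data in which no array stood apart, which does not show its error or power in these data. The pairing comes from the series design, by which each pool gave both fractions. Deviations of same-pool arrays from group means correlated at 0.38, -0.19 and 0.35 in pools 1 to 3. SDs are between samples and SEs come from the fit; the number of arrays limits the precision. Named are all 32 genes, and of each further list up to 3 genes of smallest p in each direction. The genes, lists and tests were chosen with earlier results of these data known. Alternatives covered normalization, filter, block, weights, probe set and each replicate left out.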

Additional observations from a re-analysis of the deposited data

How the results depend on the processing

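Of the 28 genes, 20 had a mean above 0. That count was 13 with array weights, 11 to 21 when 1 pool was left out (11 without pool 2), 11 when pool 2 was left out before normalization, and 12 without the ALDH-negative array of pool 2 and without the pool block. With array weights, under which 10.9% of all probe sets passed, 1 of the 28 genes passed the threshold, Slc7a11 (-2.13). Of the other 65, 1 passed, Gstz1 (-1.80). In the other 12 settings none passed. The median, 0.76 over 3 pools, was 1.17 with median-centred arrays, 0.999 as deposited, -0.14 with array weights, -0.13 without pool 2 and -0.21 without the ALDH-negative array of pool 2 (no block). The count above 0 in every pool was 4, was 3 with the values as deposited or median-centred, and became 5 to 11 in the pools that remained when 1 pool was left out (5 without pool 2). Without the replicate block no gene passed (median 0.76), so pairing changed no call. In this balanced design dropping the block leaves each difference as it was, so no sign could change.

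Signs turned in these cases, and the cause was not tested. With the values as deposited they were Gstt1 (0.17), Cat (0.53), Sod2 (0.31) and Gpx3 (0.13), and with median-centred arrays the same genes (0.34, 0.69, 0.48 and 0.30). Leaving out 1 pool at a time gave ranges across 0, with the value of turned sign in each of these genes being that without pool 2: Hmox1 (-0.095 to 1.36), Gsta3 (-0.87 to 0.95), Gsta4 (-0.23 to 1.54), Gstm1 (-0.68 to 1.01), Gstm5 (-0.12 to 2.33), Gstt1 (-1.37 to 1.22), Srxn1 (-0.49 to 2.40), Sod1 (-0.13 to 3.14), Abcc1 (-0.21 to 0.69), Nfe2l2 (-0.21 to 2.56) and Keap1 (-0.57 to 0.69). With pool 2 left out before normalization these 11 gave -0.10, -0.94, -0.21, -0.70, -0.13, 1.30, -0.53, -0.12, -0.23, -0.22 and -0.61. Array weights turned Hmox1 (-0.20), Gsta3 (-1.22), Gstm1 (-0.73), Gstt1 (1.24), Srxn1 (-0.67), Sod1 (-0.079), Abcc1 (-0.32), Nfe2l2 (-0.21) and Keap1 (-0.83). Without the ALDH-negative array of pool 2 they were Gsta3 (-0.83), Gsta4 (-0.46), Gstm1 (-0.39), Gstt1 (0.72), Srxn1 (-0.36), Sod1 (-0.15), Abcc1 (-0.44), Cyp1b1 (-0.0053), Nfe2l2 (-0.34) and Keap1 (-0.34). Gpx3 turned without pool 1 (range -1.11 to 0.017), and Sod2 (-0.65 to 0.16) and Gpx4 (-0.23 to 0.44) turned without pool 3. The mean of the probe sets turned Cat (0.51), and the probe set chosen without the ALDH-negative array of pool 2, an alternative added after seeing the data, turned Gclc (0.64). The 10 genes that kept their sign under the 13 settings were Ephx1, Gclm, Gpx1, Gsta2, Gstm2, Gsto1, Gstp1, Mgst1, Nqo1 and Txnrd1. A kept sign is that of a mean, and among them Gclm, Gpx1, Gstm2 and Gstp1 lay below 0 in pool 1 and above 0 in pool 3. Gsta2 differed by 0.00 in pool 3. Slc7a11 kept its sign under the 12 in which it was tested. Changing the filter or dropping the block left each difference as it was, so these settings could not turn a sign. Nor could the settings that change the probe set, for genes with 1 tested probe set. Over pools 1 and 3 the median stayed between -0.14 and -0.11 under 7 other settings, also added later, and none of the genes passed.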
